A study of Homo sapiens with 12 samples.

Results

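The genes that make cholesterol and fatty acids were followed across 5 groups of LNCaP-Abl cells, an established prostate cancer line that grew out of LNCaP during prolonged androgen withdrawal. The set was a list of 39 genes, taken by name, that covers the mevalonate and sterol pathways, fatty acid synthesis, elongation and desaturation, sterol uptake, and the regulators of these steps. A probe under the listed symbol was found for 38 of them, and 36 had a probe detected at a detection p-value under 0.05 on at least 2 of the 12 arrays, among 12227 genes tested in all. NPC1L1, the intestinal sterol importer, was detected on 0 arrays and STARD4, a sterol carrier, on 1, so neither was tested, and FDFT1, squalene synthase, was not analysed here. SREBF2 was detected on 9 arrays and THRSP on 2, while each of the other 34 tested genes was detected on all 12.

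Every group was kept in RPMI with charcoal-stripped serum, which is poor in steroids, and doxycycline was used to induce the construct. The construct was the control vector or WT SPOP, with 3 arrays each, or 1 of the mutants SPOP F102C, SPOP F133V and SPOP F133L, with 2 arrays each. SPOP recruits substrates to a CUL3 ubiquitin ligase, and the 3 mutants are forms found in prostate cancer. The labels state neither the dose and duration of induction, nor the amount of SPOP protein, nor whether a group was 1 clone or a pool. The series' text calls the arrays of a group biological replicates, but separate cultures are not described further, so each p-value reflects only the spread among the arrays at hand. RNA came from whole cultures, in which fewer cells making a transcript and less of it per cell cannot be told apart.

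Between 17485 and 19677 of 47323 probes were detected per array, with 19272 to 19677 on control vector arrays, 18906 to 19175 on WT SPOP arrays and 17485 to 19543 on mutant arrays. The 2 F133V arrays had the fewest, 17485 and 17864, and the F102C and F133L arrays had 18482 to 19543. Within a group, Pearson's r between arrays was 0.990 to 0.994 across the genes. Of 11 markers of the prostate luminal lineage 9 had a probe, and all 9 were detected on at least 2 arrays. The stromal genes COL1A1, COL3A1, DCN, LUM and PDGFRB were detected on 0 arrays, as were KRT5, KRT14, CD44, CD3E, LYZ, CHGA, CHGB, SYP and PLIN1. The markers detected on at least 2 arrays were 1 of 5 of the basal or other carcinoma list, 2 of 5 immune, 1 of 5 neuroendocrine, 2 of 3 adipocyte and 4 of 4 liver genes.

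Cells build cholesterol from acetyl-CoA through mevalonate and squalene, and build fatty acids from the same acetyl-CoA through malonyl-CoA. Both routes are driven by the SREBP transcription factors, which SCAP carries out of the endoplasmic reticulum for activation and which the INSIG proteins hold back when sterols are plentiful. Prostate cancer cells are known for active lipid synthesis, part of which responds to androgen.

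The promoters of the 4 sterol genes whose arrays separated WT SPOP from all 6 mutant arrays with a call are shown so that the letters before their starts can be compared. Each line gives the 250 bases before an annotated start from RefSeq (GRCh38.p14), read 5′ to 3′ on the strand of the gene. Capitals mark the sterol response element core TCACNCCAC, the NF-Y box CCAAT and the Sp1 box GGGCGG, each searched on both strands, so that ATTGG and CCGCCC are the same boxes on the other strand. The window of TM7SF2 is chr11:65111622-65111871 on the plus strand, and that of NPC1 is chr18:23586507-23586756 on the minus strand. That of INSIG2 is chr2:118088221-118088470 on the plus strand, before the first of its 2 listed starts, and that of EBP is chrX:48521558-48521807 on the plus strand.
TM7SF2: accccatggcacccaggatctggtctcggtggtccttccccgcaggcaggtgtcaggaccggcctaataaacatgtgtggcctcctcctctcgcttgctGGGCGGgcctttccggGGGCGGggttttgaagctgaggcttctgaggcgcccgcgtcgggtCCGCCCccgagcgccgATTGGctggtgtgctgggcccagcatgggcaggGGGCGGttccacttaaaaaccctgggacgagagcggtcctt
NPC1: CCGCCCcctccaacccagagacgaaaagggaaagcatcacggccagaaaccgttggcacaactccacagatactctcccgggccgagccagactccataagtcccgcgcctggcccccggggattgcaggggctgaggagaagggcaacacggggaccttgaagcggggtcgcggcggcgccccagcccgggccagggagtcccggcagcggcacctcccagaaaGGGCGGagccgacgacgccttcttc
INSIG2: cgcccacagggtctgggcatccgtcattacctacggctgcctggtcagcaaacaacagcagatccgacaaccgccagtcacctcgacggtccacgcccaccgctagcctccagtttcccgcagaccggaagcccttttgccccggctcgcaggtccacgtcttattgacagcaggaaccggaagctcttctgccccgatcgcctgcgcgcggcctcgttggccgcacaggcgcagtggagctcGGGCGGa
EBP: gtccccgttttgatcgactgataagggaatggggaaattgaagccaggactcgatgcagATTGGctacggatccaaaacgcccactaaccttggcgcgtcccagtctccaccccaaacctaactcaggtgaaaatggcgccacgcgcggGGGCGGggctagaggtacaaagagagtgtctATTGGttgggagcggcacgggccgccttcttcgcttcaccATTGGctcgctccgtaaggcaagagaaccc

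The TM7SF2 window held 1 NF-Y box, starting 74 bases before the start, and 4 Sp1 boxes, and the EBP window held 3 NF-Y boxes and 1 Sp1 box. NPC1 and INSIG2 had no NF-Y box in these windows and 2 and 1 Sp1 boxes. None of the 4 held the sterol response element core. Promoters were matched for 33 of the 36 tested genes, with 44 windows, and ACAT2, SQLE and FASN were not matched. The NF-Y box was in 26 of the 44 windows (59.1%), against 32% of all 35116 promoter windows of the same length. The Sp1 box was in 38 windows (86.4%), against 42.6% of all windows. The sterol response element core was in 1 window (2.27%), against 0.883% of all windows. That window belonged to SREBF2, the gene of SREBP2, and the match TCACCCCAC ended 125 bases before the start. These are letter matches and were not tested as binding sites. The windows of all promoters were not matched to those of the set for G and C content. Overlapping windows of 1 gene, as for SC5D, ACLY and INSIG2, were each counted.

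Control vector arrays served to show what intact SPOP changed, and WT SPOP arrays to show where the mutants departed from it. Levels below are log2 intensities after background correction and quantile normalization, each of 1 probe per gene, and a gene was called at an adjusted p under 0.05 over all 12227 genes. With WT SPOP, TM7SF2, INSIG2 and NPC1 rose against control vector, and these same 3 genes fell in the mutants against WT SPOP, where EBP and ELOVL7 rose. The pooled mutants also differed from control vector in 8 genes, of which TM7SF2, EBP, ACSS2, ACACA and FADS2 rose and SQLE, HSD17B7 and ELOVL6 fell. The 3 comparisons share arrays (WT SPOP in the first pair, control vector and mutants in the others), so their values are given side by side.

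**Figure D1:**
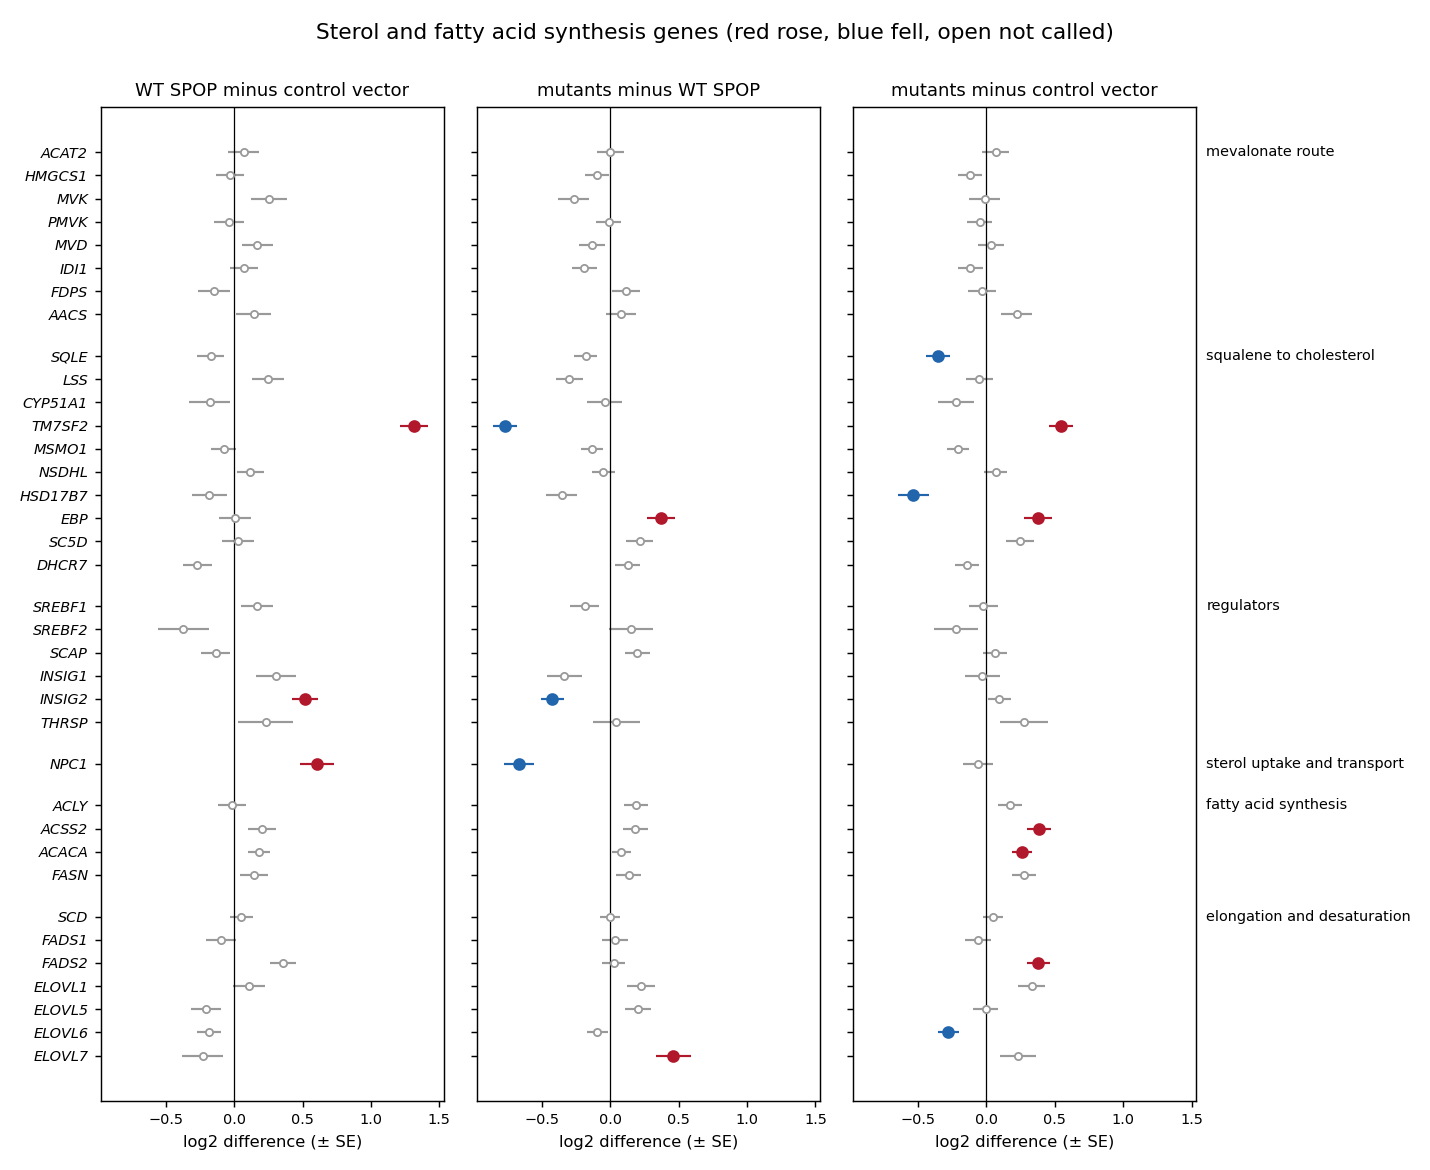
Log2 difference (horizontal axis) of each of the 36 tested genes, by role, for WT SPOP minus control vector, mutants minus WT SPOP, and mutants minus control vector; points are limma estimates, bars their SE. TM7SF2 stands farthest from 0 in the first panel, at 1.32, and most genes lie near 0. When arrays are given equal medians of all probes, EBP, ACSS2, ACACA and FADS2 in the last panel turn to the other side of 0. The median of all genes in that panel's comparison is then -0.37.

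In WT SPOP against control vector 3 of the 36 genes rose and 0 fell, where 3.08% of all genes rose and 3.07% fell. At an unadjusted p under 0.05 limma put 5 genes of the set higher, the 3 called genes among them. It put 1 lower, DHCR7 (-0.27 ± 0.10, SE, adjusted p = 0.158). The share of all genes at an unadjusted p was counted only for the F test given below. The median difference of the set was 0.06, and that of all genes 0.00. In the mutants against WT SPOP 2 rose and 3 fell, where 5.57% of all genes rose and 6.18% fell. The median was 0.00 in the set and -0.01 over all genes. Against control vector 5 rose and 3 fell, where 5.59% of all genes rose and 6.62% fell, with medians of 0.01 and -0.01. The medians of the set were thus close to those of all genes, and the changes below are those of single genes.

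The mevalonate route, from acetyl-CoA to farnesyl diphosphate, was covered by 8 genes, of which limma called 0 in each of 6 comparisons. At an unadjusted p under 0.05 it put 1 lower in the mutants against WT SPOP, and in the single-mutant comparisons 1 higher and 1 lower for F102C and 2 lower for F133L. Their differences ran from -0.45 to 0.29. The lowest was that of MVK, mevalonate kinase. MVK levels were 6.37, 6.20 and 6.35 with control vector, 6.36, 6.60 and 6.72 with WT SPOP, 6.39 and 5.99 with F102C, 6.69 and 6.47 with F133V, and 6.11 and 6.10 with F133L. Both F133L arrays were thus below the other groups except 1 F102C array. MVK was lower in F133L than in WT SPOP by -0.45 ± 0.14 (SE, n = 2 and 3), which did not pass (adjusted p = 0.0841).

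HMGCS1, the HMG-CoA synthase of the route, ranged from 9.86 to 10.20 over the 12 arrays. Its difference between mutants and WT SPOP was -0.09, with a 95% interval from -0.29 to 0.10. IDI1, the isomerase that makes the second isoprenoid unit, was at 9.83 to 9.96 with WT SPOP and at 9.67 to 9.76 on the 6 mutant arrays, which did not overlap. Its difference of -0.19 ± 0.09 did not pass (adjusted p = 0.199). ACAT2, the thiolase that starts the route, PMVK and MVD, the next kinase and the decarboxylase, FDPS, farnesyl diphosphate synthase, and AACS, which activates acetoacetate, did not pass in any comparison.

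From squalene to cholesterol 10 genes were tested, and this segment held the largest change of the set. TM7SF2 is a sterol reductase of the endoplasmic reticulum that acts after lanosterol is demethylated. Its levels (probe ILMN_1690040) were 8.89, 8.91 and 8.97 with control vector, 10.23, 10.25 and 10.24 with WT SPOP, 9.50 and 9.27 with F102C, 9.68 and 9.35 with F133V, and 9.50 and 9.51 with F133L. All 6 mutant arrays lay above every control vector array and below every WT SPOP array.

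TM7SF2 rose 2.49-fold with WT SPOP, a log2 difference of 1.32 ± 0.10 (SE, n = 3 and 3; adjusted p = 1.27e-05), the 42nd largest difference of the 12227 genes. In the mutants it fell against WT SPOP by 0.77 ± 0.09 (SE, n = 6 and 3; adjusted p = 0.000347), and rose against control vector by 0.54 ± 0.09 (adjusted p = 0.00252). The first 2 of these calls were kept in all 12 fits that left out 1 array and in all 13 other ways of processing. The rise against control vector was 0.052 (adjusted p = 0.771) once arrays were given equal medians of all probes, and 0.29 (adjusted p = 0.529) with the number of detected probes as a covariate. Equal medians of all probes moved the median of all genes to -0.37 in that comparison and to -0.26 in the mutants against WT SPOP. The covariate cut the calls over all genes in the mutants against control vector from 1494 to 107. Values under either setting below are to be read beside these shifts.

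EBP, the sterol isomerase further down the same route, moved differently. Its levels (probe ILMN_2073604) were 10.19, 9.96 and 9.85 with control vector, 9.83, 10.07 and 10.10 with WT SPOP, 10.45 and 10.27 with F102C, 10.58 and 10.42 with F133V, and 10.33 and 10.19 with F133L. The mutant arrays lay above all WT SPOP and all control vector arrays, though the lower F133L array and the highest control vector array were equal to 2 decimals, while WT SPOP and control vector overlapped. EBP rose in the mutants by 0.37 ± 0.10 against WT SPOP (SE, n = 6 and 3; adjusted p = 0.038) and by 0.38 ± 0.10 against control vector (adjusted p = 0.034), but scaling arrays to equal medians of all probes gave 0.042 and -0.12. The call against WT SPOP was lost without any 1 of 7 arrays: control vector 2 (0.37), WT SPOP 1 (0.28), WT SPOP 2 (0.41), WT SPOP 3 (0.42), F102C 1 (0.34), F133V 1 (0.35) or F133L 1 (0.35). With the number of detected probes as a covariate the differences were 0.30 (adjusted p = 0.325) and 0.26 (adjusted p = 0.699). The call against control vector was lost without control vector 2 (0.36), control vector 3 (0.30), F102C 1 (0.35), F133V 1 (0.35) or F133L 1 (0.35).

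Against control vector, SQLE and HSD17B7 were the genes of this segment that fell in the mutants. SQLE is squalene epoxidase, a rate-limiting oxygen-dependent step. Its levels (probe ILMN_2041293) were 10.57, 10.69 and 10.91 with control vector, 10.59, 10.55 and 10.50 with WT SPOP, 10.38 and 10.32 with F102C, 10.29 and 10.33 with F133V, and 10.49 and 10.40 with F133L. The mutant arrays lay below all control vector arrays and just below all WT SPOP arrays. SQLE fell in the mutants against control vector by 0.35 ± 0.09 (SE, n = 6 and 3; adjusted p = 0.0205). A second SQLE probe gave -0.32 ± 0.12, which did not pass (adjusted p over probes = 0.115), and put the mutants 0.03 above WT SPOP. The call was lost without control vector 2 (-0.37, adjusted p = 0.0569) or control vector 3 (-0.26, adjusted p = 0.0931), and with the number of detected probes as a covariate (-0.46, adjusted p = 0.332).

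HSD17B7 encodes a sterol ketone reductase that also acts on sex steroids. Its levels (probe ILMN_1671661) were 10.05, 9.80 and 10.09 with control vector, 10.01, 9.68 and 9.71 with WT SPOP, 9.64 and 9.30 with F102C, 9.42 and 9.27 with F133V, and 9.42 and 9.62 with F133L. The mutant arrays lay below the arrays of both other groups. HSD17B7 fell against control vector by 0.54 ± 0.11 (SE, n = 6 and 3; adjusted p = 0.0106), a 1.45-fold difference, and its difference from WT SPOP, -0.35 ± 0.11, did not pass (adjusted p = 0.0653). The latter passed in several other ways of processing. Among them were the deposited log2 values (-0.29, adjusted p = 0.0236) and the number of detected probes as a covariate (-0.59, adjusted p = 0.0442). With every detected probe tested it did not pass (adjusted p over probes = 0.0932). Without control vector 3 the difference from control vector was -0.48 and missed the threshold (adjusted p = 0.056).

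Of the other genes of the segment, LSS, the cyclase that makes lanosterol, was called in F133L only and is described with that mutant. CYP51A1, the lanosterol demethylase, MSMO1 and NSDHL, which remove methyl groups, SC5D, a desaturase, and DHCR7, the last reductase, were not called in any comparison.

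Among the regulators, INSIG2 was called in both main comparisons. INSIG2 is the endoplasmic reticulum protein that, like INSIG1, retains SCAP with SREBP. Its levels (probe ILMN_1676629) were 7.95, 7.82 and 8.01 with control vector, 8.58, 8.36 and 8.39 with WT SPOP, 7.95 and 7.94 with F102C, 8.16 and 8.17 with F133V, and 8.03 and 7.87 with F133L. WT SPOP arrays lay above all others, the F133V arrays next, and F102C and F133L overlapped control vector. INSIG2 rose with WT SPOP by 0.52 ± 0.10 (SE, n = 3 and 3; adjusted p = 0.00837) and fell in the mutants against WT SPOP by 0.42 ± 0.08 (SE, n = 6 and 3; adjusted p = 0.00817). Against control vector the mutants differed by 0.09, with a 95% interval from -0.09 to 0.27. The fall was -0.35 (adjusted p = 0.0521) without WT SPOP 1, and with the number of detected probes as a covariate the rise was 0.47 (adjusted p = 0.055) and the fall -0.49 (adjusted p = 0.0613). Giving arrays equal medians of all probes put the rise at 0.40 (adjusted p = 0.173).

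**Figure D2:**
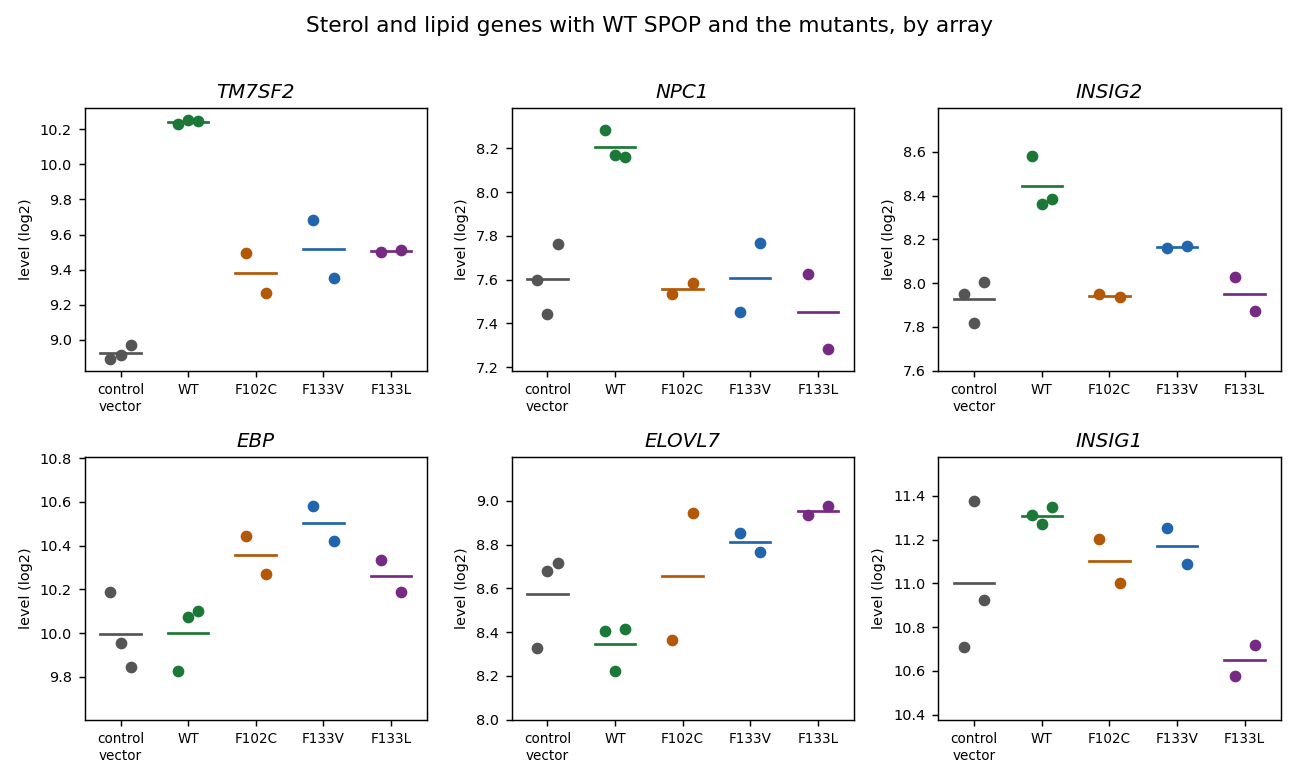
Level of TM7SF2, NPC1, INSIG2, EBP, ELOVL7 and INSIG1 on each of the 12 arrays (log2 scale, each panel on its own axis that does not start at 0) in the 5 groups; points are arrays and bars group means. The 3 WT SPOP arrays of TM7SF2 sit between 10.23 and 10.25, above the 6 mutant arrays at 9.27 to 9.68.

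INSIG1, the INSIG gene that is itself induced by SREBP, was 10.71, 11.38 and 10.92 with control vector, 11.31, 11.27 and 11.35 with WT SPOP, 11.20 and 11.001 with F102C, 11.25 and 11.09 with F133V, and 10.58 and 10.72 with F133L. The 3 control vector arrays spanned most of this range, and 1 of them fell between the F133L arrays, which were otherwise the lowest. INSIG1 was called neither in WT SPOP against control vector (0.31 ± 0.15, adjusted p = 0.261) nor in the mutants against WT SPOP (-0.34 ± 0.13, adjusted p = 0.113). Without control vector 2 both passed, at 0.49 (adjusted p = 0.0435) and -0.34 (adjusted p = 0.0381). A second, dimmer INSIG1 probe, detected on all 12 arrays, had the other sign in both, at -0.20 ± 0.14 (adjusted p over probes = 0.524) and 0.022 ± 0.12 (adjusted p over probes = 0.942).

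SREBF1, the gene of SREBP1 and the main driver of fatty acid genes, was at 9.28 to 9.77 over all arrays and was not called. Its difference between mutants and WT SPOP was -0.19, with a 95% interval from -0.42 to 0.04. A second SREBF1 probe was higher with WT SPOP by 0.40 ± 0.10 and just missed the threshold (adjusted p over probes = 0.0551), and it placed the mutants 0.23 above control vector where the first placed them at -0.02. SREBF2 was dim, detected on 3 of 3 control vector, 1 of 3 WT SPOP and 5 of 6 mutant arrays, and did not pass. SCAP, the sterol-sensing escort, was at 9.79 to 10.24 and differed between mutants and WT SPOP by 0.20 ± 0.09 (adjusted p = 0.182). THRSP, a nuclear protein linked to lipogenesis, was detected on 1 WT SPOP and 1 mutant array and gave no usable fold.

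NPC1, which exports cholesterol from lysosomes, was the tested gene of the uptake and transport group. Its levels (probe ILMN_1713505) were 7.60, 7.44 and 7.76 with control vector, 8.29, 8.17 and 8.16 with WT SPOP, 7.53 and 7.58 with F102C, 7.45 and 7.77 with F133V, and 7.62 and 7.28 with F133L. WT SPOP stood alone above all other arrays, and mutant and control vector arrays overlapped. NPC1 rose with WT SPOP by 0.61 ± 0.12 (SE, n = 3 and 3; adjusted p = 0.0149) and fell in the mutants against WT SPOP by 0.67 ± 0.11 (SE, n = 6 and 3; adjusted p = 0.00281), a 1.59-fold difference. Against control vector the mutants differed by -0.06, with a 95% interval from -0.30 to 0.17. The fall was called in all 12 fits that left out 1 array but missed the threshold with the number of detected probes as a covariate (-0.68, adjusted p = 0.0513), and the rise missed the threshold without control vector 1 (0.60, adjusted p = 0.0504), control vector 2 (0.53, adjusted p = 0.0621) or WT SPOP 1 (0.57, adjusted p = 0.0578). The rise was also lost with equal medians of all probes (0.50, adjusted p = 0.0907) and with that covariate (0.60, adjusted p = 0.065).

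In fatty acid synthesis, 4 enzymes were tested and 2 rose in the mutants against control vector. ACSS2, which makes acetyl-CoA from acetate, was 8.93, 8.73 and 8.64 with control vector, 8.99, 9.02 and 8.89 with WT SPOP, 9.06 and 9.10 with F102C, 9.25 and 9.03 with F133V, and 9.20 and 9.27 with F133L (probe ILMN_1714197). Mutant arrays lay above all control vector arrays and, by a narrow margin, above all WT SPOP arrays. ACSS2 rose in the mutants against control vector by 0.39 ± 0.09 (SE, n = 6 and 3; adjusted p = 0.0156), while a second probe gave 0.26 ± 0.08 (adjusted p over probes = 0.0729) and another, dimmer one -0.057 ± 0.13 (adjusted p over probes = 0.846). The call was lost without control vector 2 (0.37) or control vector 3 (0.32), and the difference was -0.10 when arrays were given equal medians of all probes. The covariate of detected probes also ended the call (0.35, adjusted p = 0.503).

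ACACA, the carboxylase that makes malonyl-CoA, was 10.17, 10.04 and 10.14 with control vector, 10.24, 10.32 and 10.32 with WT SPOP, and between 10.33 and 10.46 on the 6 mutant arrays (probe ILMN_2331636). No control vector array reached the other groups. ACACA rose in the mutants against control vector by 0.26 ± 0.07 (SE, n = 6 and 3; adjusted p = 0.0344), and its difference between WT SPOP and control vector, 0.18 ± 0.08, did not pass (adjusted p = 0.237). A second ACACA probe gave 0.28 ± 0.09 (adjusted p over probes = 0.0886), and the value was -0.23 when arrays were given equal medians of all probes. The call was lost in 9 of the 12 fits that left out 1 array, at 0.23 to 0.29: without any of the control vector arrays, WT SPOP 2, either F102C array, either F133V array or F133L 1. The covariate of detected probes ended it too (0.26 ± 0.15, SE, adjusted p = 0.544), with the difference unchanged and a larger SE.

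**Figure D3:**
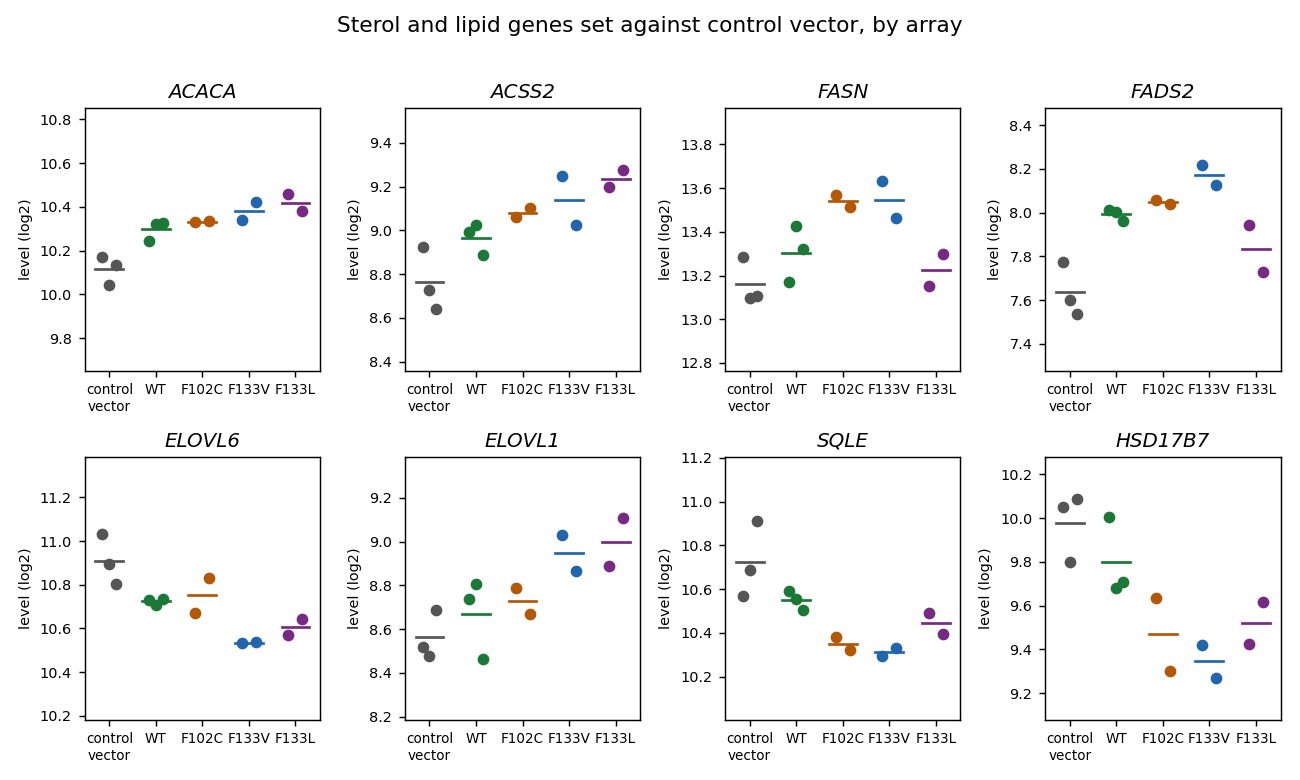
Level of ACACA, ACSS2, FASN, FADS2, ELOVL6, ELOVL1, SQLE and HSD17B7 on each of the 12 arrays (log2 scale, each panel on its own axis that does not start at 0) in the 5 groups; points are arrays and bars group means. ACACA on control vector arrays sits at 10.04 to 10.17, below its mutant arrays at 10.33 to 10.46. When arrays are given equal medians of all probes, ACACA, ACSS2 and FADS2 no longer lie above control vector in the mutants. The median of all genes in that comparison is then -0.37.

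FASN, fatty acid synthase, was 13.28, 13.10 and 13.10 with control vector, 13.17, 13.42 and 13.32 with WT SPOP, 13.57 and 13.51 with F102C, 13.63 and 13.46 with F133V, and 13.15 and 13.30 with F133L. F102C and F133V were above every other array, and F133L overlapped control vector. The difference between the pooled mutants and control vector, 0.28 ± 0.09, did not pass (adjusted p = 0.0647). It passed in several other ways of processing, among them the deposited log2 values (0.28, adjusted p = 0.00942). With every detected probe tested it did not (adjusted p over probes = 0.101). ACLY, which makes cytosolic acetyl-CoA from citrate, was at 11.30 to 11.73 over all arrays, with a difference between mutants and WT SPOP of 0.19 ± 0.09 (adjusted p = 0.192). A second ACLY probe gave 0.083, and put WT SPOP 0.041 above control vector where the first put it at -0.016.

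Of the 7 genes that lengthen or desaturate fatty acids, FADS2 rose and ELOVL6 fell in the mutants against control vector, and ELOVL7 rose against WT SPOP. FADS2, a desaturase of polyunsaturated fatty acids, was 7.78, 7.60 and 7.53 with control vector, 8.01, 8.003 and 7.96 with WT SPOP, 8.06 and 8.04 with F102C, 8.22 and 8.13 with F133V, and 7.94 and 7.73 with F133L (probe ILMN_2075065). One F133L array overlapped control vector, and all other SPOP arrays lay above it. FADS2 rose in the mutants by 0.38 ± 0.08 (SE, n = 6 and 3; adjusted p = 0.012), but lay at -0.094 when arrays were given equal medians of all probes. Its difference of 0.36 ± 0.10 between WT SPOP and control vector just missed the threshold (adjusted p = 0.0511), and passed without control vector 1 (0.42), F133L 1 (0.36) or F133L 2 (0.36). That difference also passed in several other ways of processing, among them the deposited log2 values (0.19, adjusted p = 0.0168). With every detected probe tested it did not pass (adjusted p over probes = 0.0931). The rise in the mutants was lost without control vector 2 (0.36, adjusted p = 0.0542) or control vector 3 (0.33, adjusted p = 0.0603), and with the covariate of detected probes (0.32, adjusted p = 0.514).

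ELOVL6, which lengthens saturated fatty acids, was 11.03, 10.89 and 10.80 with control vector, 10.73, 10.71 and 10.73 with WT SPOP, 10.67 and 10.83 with F102C, 10.53 and 10.54 with F133V, and 10.57 and 10.64 with F133L. The second F102C array overlapped control vector and the other mutant arrays lay below it. ELOVL6 fell in the mutants against control vector by 0.28 ± 0.08 (SE, n = 6 and 3; adjusted p = 0.0393), and a second probe gave -0.23 ± 0.11 (adjusted p over probes = 0.226). The call was lost in 9 of the 12 fits that left out 1 array, at -0.29 to -0.22: without control vector 1 or 2, any WT SPOP array, F102C 1, either F133V array or F133L 1. It was -0.14 (adjusted p = 0.788) with the number of detected probes as a covariate.

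ELOVL7, an elongase of long-chain fatty acids, was 8.33, 8.68 and 8.72 with control vector, 8.40, 8.22 and 8.41 with WT SPOP, 8.37 and 8.94 with F102C, 8.86 and 8.77 with F133V, and 8.93 and 8.98 with F133L. The first F102C array lay among the WT SPOP arrays, and the other 5 mutant arrays above them. ELOVL7 rose in the mutants against WT SPOP by 0.46 ± 0.13 (SE, n = 6 and 3; adjusted p = 0.0405). It was lost in 9 of the 12 fits that left out 1 array, at 0.36 to 0.49: without control vector 2, any WT SPOP array, F102C 2, either F133V array or either F133L array. With equal medians of all probes the difference was 0.097 (adjusted p = 0.648), and the call was also lost without the detection filter (0.46, adjusted p = 0.0545) and with every detected probe tested (0.46, adjusted p = 0.0584).

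SCD, which introduces the first double bond, was at 12.51 to 12.86 on all arrays, and its difference between mutants and WT SPOP was 0.00, with a 95% interval from -0.16 to 0.16. ELOVL1, an elongase of very long chains, differed between mutants and control vector by 0.33 ± 0.10 (adjusted p = 0.0525), and passed without WT SPOP 3 (0.33) or F133L 1 (0.37). ELOVL5, an elongase of polyunsaturated fatty acids, was at 11.38 to 11.49 with control vector, 11.16 to 11.25 with WT SPOP, 11.23 and 11.34 with F102C, 11.48 and 11.78 with F133V, and 11.46 and 11.18 with F133L. F133V overlapped control vector but not WT SPOP, and its difference from WT SPOP, 0.42 ± 0.12 (SE, n = 2 and 3), did not pass (adjusted p = 0.0552). It passed without F133L 1 (0.42, adjusted p = 0.0444) or F133L 2 (0.42, adjusted p = 0.0446). FADS1, the partner desaturase of FADS2, passed in no comparison.

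Each mutant was then set against WT SPOP alone, with 2 arrays against 3. TM7SF2 fell in each, by 0.86 ± 0.11 in F102C (SE; adjusted p = 0.00254), by 0.72 ± 0.11 in F133V (adjusted p = 0.00438) and by 0.73 ± 0.11 in F133L (adjusted p = 0.00391). NPC1 fell in each too, by 0.65 ± 0.14 (adjusted p = 0.0283), 0.60 ± 0.14 (adjusted p = 0.024) and 0.75 ± 0.14 (adjusted p = 0.00916) in the same order. INSIG2 fell by 0.50 ± 0.11 in F102C (adjusted p = 0.0283) and by 0.49 ± 0.11 in F133L (adjusted p = 0.0209), and its difference in F133V, -0.28 ± 0.11, did not pass (adjusted p = 0.132).

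These 3 genes made up all calls in F102C, where 0 of 36 rose and 3 fell, against 1.68% and 1.46% of all genes. At an unadjusted p under 0.05 limma put 2 genes of the set higher in F102C, EBP (0.36) and FDPS (0.29). It put 5 lower, the 3 called genes among them. In F133V 1 rose and 2 fell, against 3.61% and 4.54% of all genes. The gene that rose was EBP, by 0.50 ± 0.13 (SE, n = 2 and 3; adjusted p = 0.0402), but lay at -0.094 when arrays were given equal medians of all probes. Under that scaling 26 genes of the set were called in F133V, against 3 in the main fit. INSIG2 there went from -0.28 to -0.90, and the median of all genes in F133V was not computed. In F133L 0 rose and 5 fell, against 3.23% and 3.32% of all genes. At an unadjusted p under 0.05 limma put 8 genes lower there, the 5 called genes among them, and 4 higher. Of these 4, ELOVL7 had the lowest adjusted p (0.61 ± 0.17, adjusted p = 0.0509). The share of all genes at an unadjusted p was not counted for the single mutants, so these unadjusted counts have no background beside them.

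Beside TM7SF2, NPC1 and INSIG2, F133L had lower LSS and INSIG1 than WT SPOP. LSS was 8.14, 7.97 and 8.06 with control vector, 8.50, 8.30 and 8.11 with WT SPOP, 8.16 and 8.05 with F102C, 8.22 and 8.01 with F133V, and 7.88 and 7.71 with F133L, whose arrays were the lowest of the 12. LSS fell in F133L by 0.51 ± 0.13 (SE, n = 2 and 3; adjusted p = 0.0394), whereas a second LSS probe, detected on 7 arrays, gave 0.11 ± 0.27 (adjusted p over probes = 0.869). INSIG1 fell in F133L by 0.66 ± 0.16 (SE, n = 2 and 3; adjusted p = 0.0361), while its second, dimmer probe gave -0.04 ± 0.16 (adjusted p over probes = 0.914).

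**Figure D4:**
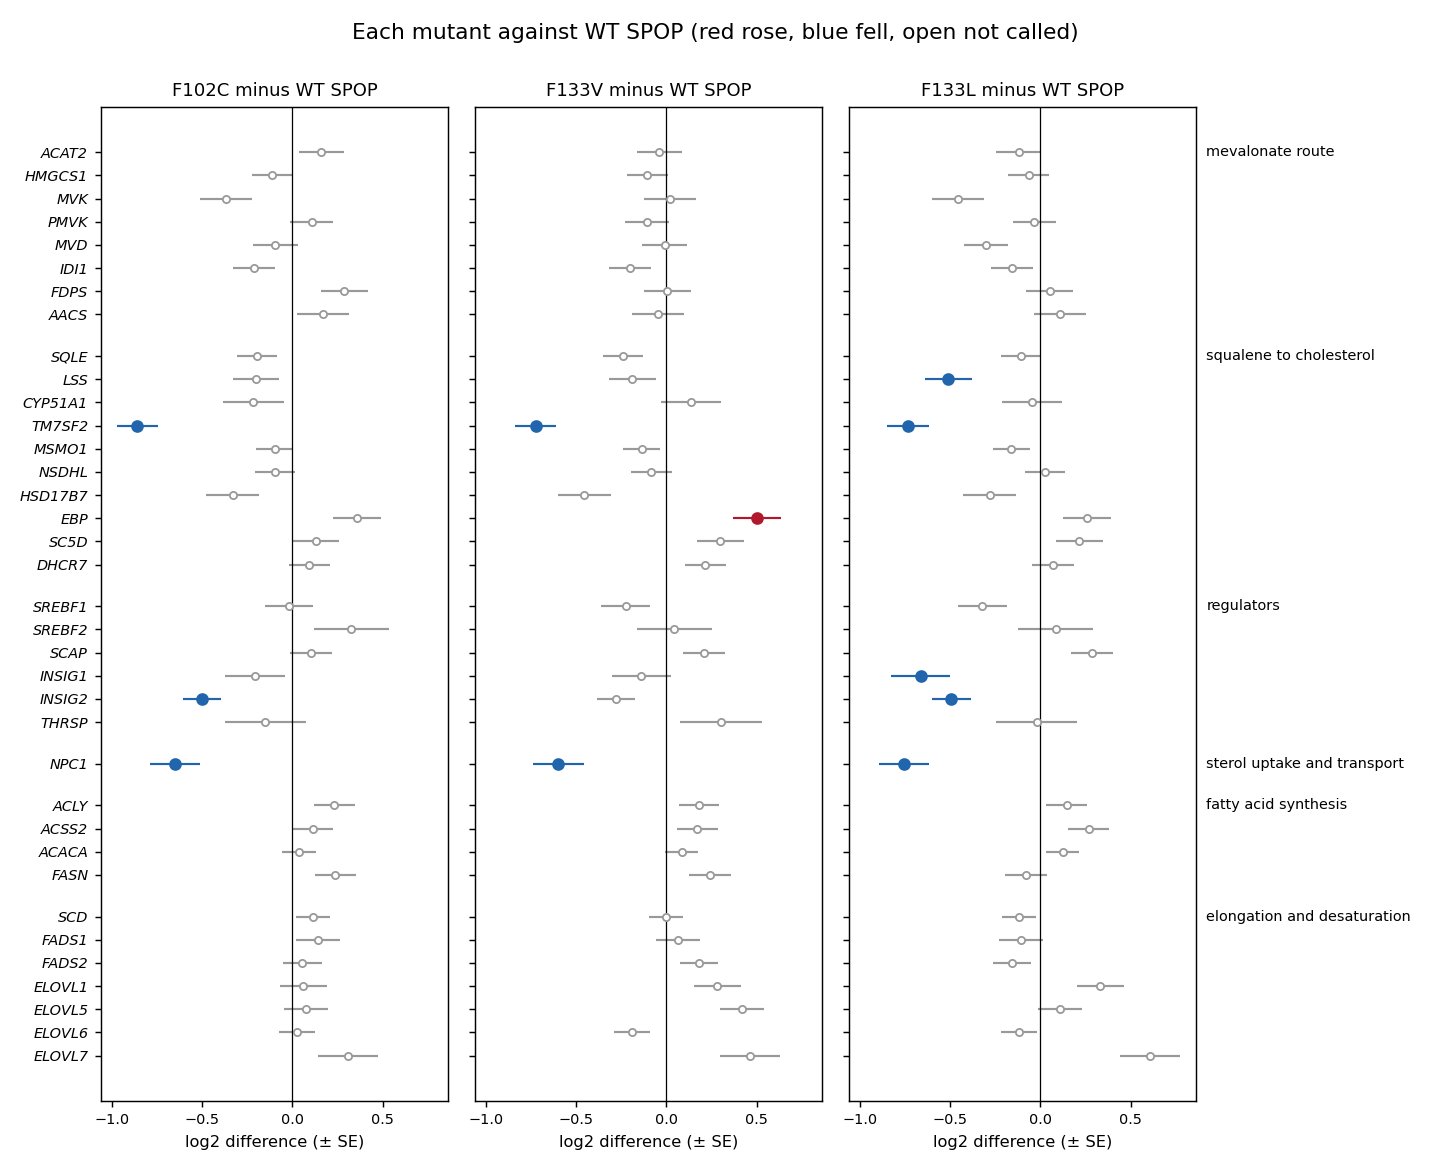
Log2 difference (horizontal axis) of each of the 36 tested genes between SPOP F102C, SPOP F133V or SPOP F133L and WT SPOP, by role; points are limma estimates, bars their SE. TM7SF2 lies at -0.86, -0.72 and -0.73 and NPC1 at -0.65, -0.60 and -0.75 in the 3 panels, while EBP in F133V, at 0.50, changes sign when arrays are given equal medians of all probes. That scaling moves the median of all genes to -0.26 in the pooled mutants against WT SPOP. The median in F133V alone was not computed. There INSIG2 went from -0.28 to -0.90 and HSD17B7 from -0.45 to -1.08.

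With so few arrays, single arrays decided many of these calls. Leaving out 1 array, the NPC1 falls were lost without any WT SPOP array or either F102C array in F102C (-0.67 to -0.61), without any WT SPOP array or F133V 1 in F133V (-0.62 to -0.44), and without F133L 2 in F133L (-0.58). The INSIG2 falls were lost without WT SPOP 1, WT SPOP 3 or either F102C array in F102C (-0.53 to -0.43) and without WT SPOP 1 (-0.42) or F133L 2 (-0.41) in F133L. EBP in F133V was lost without control vector 2, any WT SPOP array, either F102C array or either F133V array (0.41 to 0.58). LSS was lost without control vector 2 or 3, WT SPOP 1 or 2, or any F102C or F133L array (-0.60 to -0.41), and INSIG1 without any WT SPOP or F133L array (-0.73 to -0.59). The TM7SF2 falls passed in every such fit, and that in F133V was lost with the number of detected probes as a covariate (-1.06, adjusted p = 0.155), as were NPC1 in F133V (-0.62, adjusted p = 0.512), EBP in F133V (0.34, adjusted p = 0.736) and INSIG1 in F133L (-0.67, adjusted p = 0.0997). Both F133V arrays had fewer detected probes than any other array, so this covariate and F133V can hardly be told apart.

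Whether the 3 mutants differed among themselves was asked with limma's F test, which called 0 of the 36 genes and 0.0245% of all genes. The smallest adjusted p in the set was 0.338, for MVK. At an unadjusted p under 0.05 it put forward 5 of the 36, against 11.8% of all genes, namely MVK, INSIG1, FASN, FADS2 and ELOVL5. For TM7SF2 the F test gave an adjusted p of 0.817 and for NPC1 0.85, which does not show that the mutants act alike.

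Other genes of lipid metabolism were read beside the set from a separate list of 79 genes, of which 64 were tested. In WT SPOP against control vector 4 rose and 2 fell, where 3.08% and 3.07% of all genes did. In the mutants against WT SPOP 2 rose and 7 fell, where 5.57% and 6.18% of all genes did, and against control vector 3 rose and 5 fell, where 5.59% and 6.62% did. ABCG1, a sterol exporter, rose with WT SPOP by 0.77 ± 0.14 (SE, n = 3 and 3; adjusted p = 0.0072) and in the mutants by 0.93 ± 0.12 against control vector (adjusted p = 0.000512). HILPDA, a lipid droplet protein, fell with WT SPOP by 0.66 ± 0.10 (adjusted p = 0.00285) and rose in the mutants against WT SPOP by 0.38 ± 0.09 (adjusted p = 0.0192). ACSL4, which activates arachidonic acid, fell in the mutants against control vector by 0.68 ± 0.10 (adjusted p = 0.00125). It was dim, at means of 6.20 and 5.52, and was detected on 3 of 3 control vector and 5 of 6 mutant arrays. Single genes of this list were not followed through the other ways of processing or the fits without 1 array.

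The mitochondrial oxidation genes ETFDH and CPT2 fell in the mutants against WT SPOP by 0.41 ± 0.08 (adjusted p = 0.00745) and by 0.36 ± 0.08 (adjusted p = 0.0148). HADHB, of the same pathway, rose with WT SPOP by 0.39 ± 0.09 (adjusted p = 0.0224), as did TRIM21, a ubiquitin ligase, by 0.45 ± 0.10 (adjusted p = 0.0209). ABCA1, the other sterol exporter of the list, was detected on 1 of 3 control vector, 3 of 3 WT SPOP and 0 of 6 mutant arrays. It thus passed the detection filter mainly through WT SPOP, which favours a fall from that group, so its call carries little weight. The bound on its fall in the mutants against WT SPOP was 1.07-fold. The limma call (adjusted p = 0.0107) was on the measured means of 5.14 and 4.62, the latter not detected. ME1, which supplies NADPH, fell in the mutants against control vector by 0.45 ± 0.09 (adjusted p = 0.00752), and TECR, the reductase of fatty acid elongation, rose by 0.35 ± 0.08 (adjusted p = 0.0118).

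In single mutants against WT SPOP the same list gave 1 rise and 1 fall in F102C (1.68% and 1.46% of all genes), 1 and 5 in F133V (3.61% and 4.54%), and 0 and 4 in F133L (3.23% and 3.32%). HILPDA rose in F102C by 0.50 ± 0.11 (adjusted p = 0.0406) and TRIM21 fell there by 0.48 ± 0.11 (adjusted p = 0.0412). OSBPL1A, an oxysterol-binding protein, fell in F133V by 0.59 ± 0.11 (adjusted p = 0.00824), and CPT2 by 0.61 ± 0.10 (adjusted p = 0.00613). MBTPS2, the protease that makes the second cut in SREBP activation, fell in F133L by 0.56 ± 0.12 (adjusted p = 0.0164), and LPIN1, a phosphatidate phosphatase, by 0.46 ± 0.10 (adjusted p = 0.0243).

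The summed level of the other cell types' markers moved in some groups through single genes. The neuroendocrine list, of which ENO2 was detected, summed to 328 to 370 intensity units on the linear scale with control vector, 484 to 537 with WT SPOP and 580 to 647 with the mutants. The list of basal or other carcinoma markers, of which VIM was detected, summed to 566 to 668 with control vector, 271 to 309 with WT SPOP and 294 to 345 with the mutants. The immune list, of which CD68 and CD14 were detected, summed to 261 to 268, 234 to 287 and 292 to 362 in the same order. The luminal list summed to 9825 to 10611, 11651 to 12241 and 11023 to 12197. The liver list, of which ALB was detected on all arrays, summed to 208 to 255, 216 to 235 and 184 to 257. The adipocyte list, of which ADIPOQ and LEP were detected, summed to 154 to 161, 127 to 156 and 115 to 158, and LEP fell in the mutants against control vector by 0.50 ± 0.14 (SE, n = 6 and 3; adjusted p = 0.0377). The part of such shifts, and of the lower number of detected probes on mutant arrays, in the changes of the sterol and fatty acid genes was not tested beyond the fits named above.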

How the data were processed

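Total RNA from the 12 samples was labelled as biotin cRNA for Illumina bead arrays. The deposited table holds, per the file headers, each probe's mean bead intensity (linear, not normalized) with its detection p-value. The authors also deposited processed log2 values, used here only as an alternative. The submitters' processing notes name lumi for these, and the labels do not state the transformation. Background correction and quantile normalization used limma's neqc (limma 3.58.1, R 4.3.3, offset 16), and probes detected on at least 2 arrays were kept (23133); the brightest probe stood for each gene. Probes were named from GEO's platform annotation. A model of 5 group means over 12 arrays was fitted with lmFit and eBayes (7 residual and 4.67 prior degrees of freedom), mutants weighted equally, with Benjamini-Hochberg adjustment over 12227 genes. The fit was tested on simulated data.

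Genes of the set and the other lists were chosen with earlier results of these data known. Every gene called in any fit is described, with the regulators and main fatty acid enzymes, and up to 4 called genes of the other list per comparison by lowest p. For genes described with values, a second probe is given, here or among the effects of processing, in the main comparisons where its sign or call differed. Where no array of a group detected a probe, the level there is a bound, set by the lowest detected signal of each array. Alternatives were other background corrections, normalizations, filters, probe choices and models, and fits without each array. Slides and scans of the arrays are not stated in the labels, and the number of arrays limits the precision.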

Additional observations from a re-analysis of the deposited data

How the results depend on the processing

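Of 27 calls, 6 passed in all 13 other ways of processing, 8 in all 12 fits without 1 array and 4 in both, these being TM7SF2 in WT SPOP against control vector, in the pooled mutants, F102C and F133L against WT SPOP. The counts of called genes follow in the order WT SPOP against control vector (3 of 36), mutants against WT SPOP (5), mutants against control vector (8), F102C (3), F133V (3) and F133L (5) against WT SPOP. Without 1 array they ran from 2 to 4, 2 to 5, 2 to 8, 1 to 3, 1 to 4 and 1 to 6. They were 4, 8, 10, 3, 6 and 6 with normexp, 5, 8, 12, 4, 6 and 9 without background correction, and 5, 7, 11, 3, 5 and 6 with the deposited log2 values. They were 4, 7, 11, 3, 5 and 5 with arrays scaled to equal medians of probes detected on all arrays, and 1, 17, 24, 3, 26 and 8 with equal medians of all probes. They were 3, 4, 8, 3, 3 and 5 without the detection filter, 4, 7, 10, 3, 5 and 7 for probes detected on all 12 arrays, 3, 5, 4, 3, 2 and 4 with the probe of largest variance, and 3, 3, 5, 2, 2 and 3 with every probe tested. They were 1, 3, 1, 3, 0 and 5 with the number of detected probes as a covariate, 4, 5, 8, 3, 2 and 3 with array weights, and 4, 8, 12, 4, 6 and 6 with a mean-variance trend. With the replicate number as a block they were 3, 3, 3, 1, 1 and 3, but same-numbered arrays did not deviate together (correlations of -0.06 to 0.04, over 0.1 in 0 of 21 pairs), so the numbers were not taken as pairs. The F test among the mutants called 0 throughout. Over all 12227 genes, the calls in the first 3 comparisons were 752, 1437 and 1494 in the main fit. They were 343, 308 and 107 with the covariate of detected probes, and 543, 672 and 920 with the replicate block. They were 593, 4616 and 6934 with equal medians of all probes, 1079, 1893 and 1892 with normexp, and 1374, 2111 and 2089 without background correction.

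Scaling to equal medians of all probes moved the median of all genes to -0.10, -0.26 and -0.37 in the first 3 comparisons, and that of the set to -0.10, -0.34 and -0.42; scaling to probes detected on all arrays gave 0.02, 0.10 and 0.11 over all genes and 0.01, 0.03 and 0.07 in the set. The share of all called genes that rose was 50.1%, 47.4% and 45.8%, against 28.5%, 3.05% and 2.26% under the first scaling and 51.6%, 74.6% and 75.8% under the second. Under the first scaling EBP (-0.12), ACSS2 (-0.10), ACACA (-0.23) and FADS2 (-0.094) in the mutants against control vector and EBP in F133V (-0.094) changed sign, each still above that median of -0.37 where the pooled mutants were set against control vector. With the probe of largest variance LSS in F133L (0.11) and ACSS2 against control vector (-0.057) changed sign. Of 189 gene and comparison pairs not called, 63 passed under at least 1 way of processing and 8 without 1 array. Many of the 63 were falls that passed with equal medians of all probes, the scaling that lowered the median of all genes. Others included FADS2 in WT SPOP against control vector and FASN and ELOVL1 in the mutants against control vector. Also among them were HSD17B7 in the mutants against WT SPOP, ELOVL5 in F133V and ELOVL7 in F133L. Each of these passed with normexp, without background correction, with the deposited log2 values and with the trend. In the first 3 comparisons those settings also called more of all genes than the main fit. The cause of these changes was not tested. Second probes differed in sign from the probe used in 30 of 84 probe and comparison values, in 10 genes, where the smallest adjusted p over probes (limma) was 0.106. In the mutants against WT SPOP they were ACAT2 (-0.31), ACSS2 (-0.30), DHCR7 (-0.095), INSIG1 (0.022), MSMO1 (0.024 and 0.019) and SQLE (0.034).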
